A study of Homo sapiens with 4 samples.

Results

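The genes described here are the liver X receptors and the genes of cholesterol efflux, 10 genes out of 19974 protein-coding genes on chromosomes 1 to 22 and X. They were taken by name: the receptor genes NR1H2 and NR1H3, the efflux transporter genes ABCA1 and ABCG1, the lipoprotein genes SCARB1, PLTP, APOE and APOC1, and the uptake genes MYLIP and LRP1. Every peak that touched a gene body or the 20 kb on each side of it was assigned to that gene, which gave 14 of 9829 PPARα peaks and 70 of 46021 PML/RARA peaks. The windows of APOE and APOC1 overlap, and the 4 PML/RARA peaks that both hold were counted once in these totals.

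The data are from NB4, a human acute promyelocytic leukemia cell line that carries the PML/RARA fusion, profiled by CUT&Tag, an assay in which an antibody directs a transposase to chromatin. The 4 libraries comprise 1 with a PPARα antibody, 1 with a PML/RARA antibody and an IgG control named for each of them, all from NB4 cells for which the labels name no drug, knockdown or time point. Since the unfused PML and RARA proteins may also be recognised, the PML/RARA signal is that of the antibody and not shown to be that of the fusion alone. There is 1 peak list per antibody and no replicate, so the values below are descriptions without a test, and sequencing depth is unknown. Marker genes of cell types were read as well, though a peak at a start does not measure expression. PML/RARA peaks lay at the start of 9 of 11 promyelocyte marker genes, among them ANPEP (fold 19.6), MS4A3 (12.9) and MPO (9.26), and of 2 of 12 marker genes of other cell types, CD3E (19.4) and COL1A1 (11.7), where 57.7% of all protein-coding genes had one. PPARα peaks lay at the start of 2 of the 11, MS4A3 (5.18) and MPO (3.99), and of 0 of the 12, both below the 32.7% of all protein-coding genes.

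Liver X receptors are nuclear receptors that sense oxysterols, pair with RXR and bind direct repeats of the hexamer AGGTCA separated by 4 bases. In macrophages they are known for switching on ABCA1 and ABCG1, which move cholesterol out of the cell onto lipoprotein particles, and for switching on MYLIP, whose product limits lipoprotein uptake. PPARα also pairs with RXR and favours repeats separated by 1 base, and RARA with RXR favours repeats separated by 2 or 5 bases.

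Of the 14 annotated promoters of these genes, 6 lay under a PML/RARA peak. All of these but that of the fourth NR1H3 start are shown, because results below turn on them. Both antibodies had peaks at the first 3 shown, and PML/RARA had a peak without PPARα at the last 2. Each runs 5′ to 3′ along the gene, from 250 bases before to 50 bases after an annotated start, from RefSeq on GRCh38.p14, the assembly called hg38. Capitals mark every match, on either strand, to the letters searched, which were AGGTCA and its direct repeats with 1, 2, 4 or 5 bases between (up to 2 mismatches over the 12 fixed letters), the ETS-type core CCGGAAG, the GC box GGGCGG, the E-box CACGTG and the cyclic AMP element TGACGTCA.
NR1H2, chr19:50376207-50376506, plus strand: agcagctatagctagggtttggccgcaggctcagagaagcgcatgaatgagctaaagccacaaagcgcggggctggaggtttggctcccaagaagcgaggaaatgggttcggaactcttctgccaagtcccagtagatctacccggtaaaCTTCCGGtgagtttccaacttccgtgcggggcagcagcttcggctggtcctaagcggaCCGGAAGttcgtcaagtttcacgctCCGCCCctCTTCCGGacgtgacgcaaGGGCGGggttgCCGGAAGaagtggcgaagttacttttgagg
PLTP, downstream start, chr20:45910945-45911244, minus strand: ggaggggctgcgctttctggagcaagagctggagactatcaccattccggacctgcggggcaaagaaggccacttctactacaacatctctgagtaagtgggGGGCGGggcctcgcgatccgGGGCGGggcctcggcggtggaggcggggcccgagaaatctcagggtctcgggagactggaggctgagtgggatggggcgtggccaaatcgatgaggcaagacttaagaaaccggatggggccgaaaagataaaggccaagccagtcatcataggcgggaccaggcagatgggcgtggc
MYLIP, chr6:16128836-16129135, plus strand: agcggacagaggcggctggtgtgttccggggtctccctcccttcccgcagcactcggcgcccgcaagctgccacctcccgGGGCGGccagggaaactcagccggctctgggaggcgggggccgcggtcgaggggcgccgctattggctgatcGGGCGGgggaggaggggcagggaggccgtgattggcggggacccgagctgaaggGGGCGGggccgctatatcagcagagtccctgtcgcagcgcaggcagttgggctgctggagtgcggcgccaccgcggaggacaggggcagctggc
NR1H3, second start, chr11:47248645-47248944, plus strand: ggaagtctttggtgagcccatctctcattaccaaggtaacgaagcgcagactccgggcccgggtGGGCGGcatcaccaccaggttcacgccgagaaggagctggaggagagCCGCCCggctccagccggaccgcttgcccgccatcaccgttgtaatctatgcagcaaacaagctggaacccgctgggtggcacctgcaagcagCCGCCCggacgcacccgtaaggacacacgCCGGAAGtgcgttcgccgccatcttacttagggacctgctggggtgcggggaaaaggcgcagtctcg
ABCA1, chr9:104928106-104928405, minus strand: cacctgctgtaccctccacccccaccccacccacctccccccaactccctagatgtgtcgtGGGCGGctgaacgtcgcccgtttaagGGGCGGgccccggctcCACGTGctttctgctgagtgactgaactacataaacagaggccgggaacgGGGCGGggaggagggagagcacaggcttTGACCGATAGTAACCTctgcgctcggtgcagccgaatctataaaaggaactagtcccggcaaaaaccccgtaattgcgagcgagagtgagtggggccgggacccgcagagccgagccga

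Across the 10 genes, PML/RARA peaks were found in every window and PPARα peaks in 8 of 10. Over all protein-coding genes, a PPARα peak lay in 53.5% of such windows and a PML/RARA peak in 78.9%. The 2 windows with PML/RARA and without PPARα were those of ABCG1 and APOC1, and 26% of all protein-coding genes had such a window. At annotated starts, taken with 1 kb on each side, PPARα peaks marked 4 of 10 genes (NR1H2, SCARB1, PLTP and MYLIP) and PML/RARA peaks 7 of 10, where the shares over all protein-coding genes were 32.7% for PPARα and 57.7% for PML/RARA. These start counts are close to the shares of all genes. All 4 starts with PPARα also had PML/RARA (32.4% of all genes had both), ABCA1, ABCG1 and NR1H3 had PML/RARA alone at a start (25.3% of all genes), and APOE, APOC1 and LRP1 had neither. For SCARB1 and ABCG1, either annotated end was taken as a possible start. Among PPARα peaks of −log10 q of at least 5, 2 of 10 genes (NR1H2 and PLTP) had one at a start, against 24.1% of all genes, and among the 9819 PML/RARA peaks of highest −log10 q, 4 of 10 genes had one, against 30.4%. With either annotated end in place of the start, a rule chosen after the data were seen, PPARα marked 5 of 10 genes (32.3% of all) and PML/RARA 8 of 10 (57.8%).

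For the windows of the 10 genes, the median was 9.17 PML/RARA peaks per 100 kb of window, between 3.21 at ABCA1 and 12.8 at NR1H2, against a median of 2.92 over all protein-coding genes. PPARα peaks had a median of 1.62 per 100 kb in the same windows, between 0 and 4.26 at NR1H2, against 0.529 over all protein-coding genes. The PPARα quartiles over all protein-coding genes were 0 and 1.87, so the PPARα median of the 10 genes lay between them. The PML/RARA quartiles were 0.703 and 7.49, so the PML/RARA median of the 10 genes lay above the upper one. Counted per window, the PPARα median was 1 peak both for the 10 genes and for all protein-coding genes. The PML/RARA median per window was 6 peaks for the 10 genes and 2 for all protein-coding genes. With those 9819 PML/RARA peaks the PML/RARA median was 1.91 per 100 kb, against 0 over all protein-coding genes, and with PPARα peaks of −log10 q of at least 5 the PPARα median was 0.935, against 0. By PML/RARA density the 10 genes stood between the 51.9th percentile (ABCA1) and the 89.4th percentile (NR1H2) of protein-coding genes. By PPARα density they stood between the 46.5th percentile (ABCG1 and APOC1, without a peak) and the 94.5th percentile (NR1H2).

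**Figure D1:**
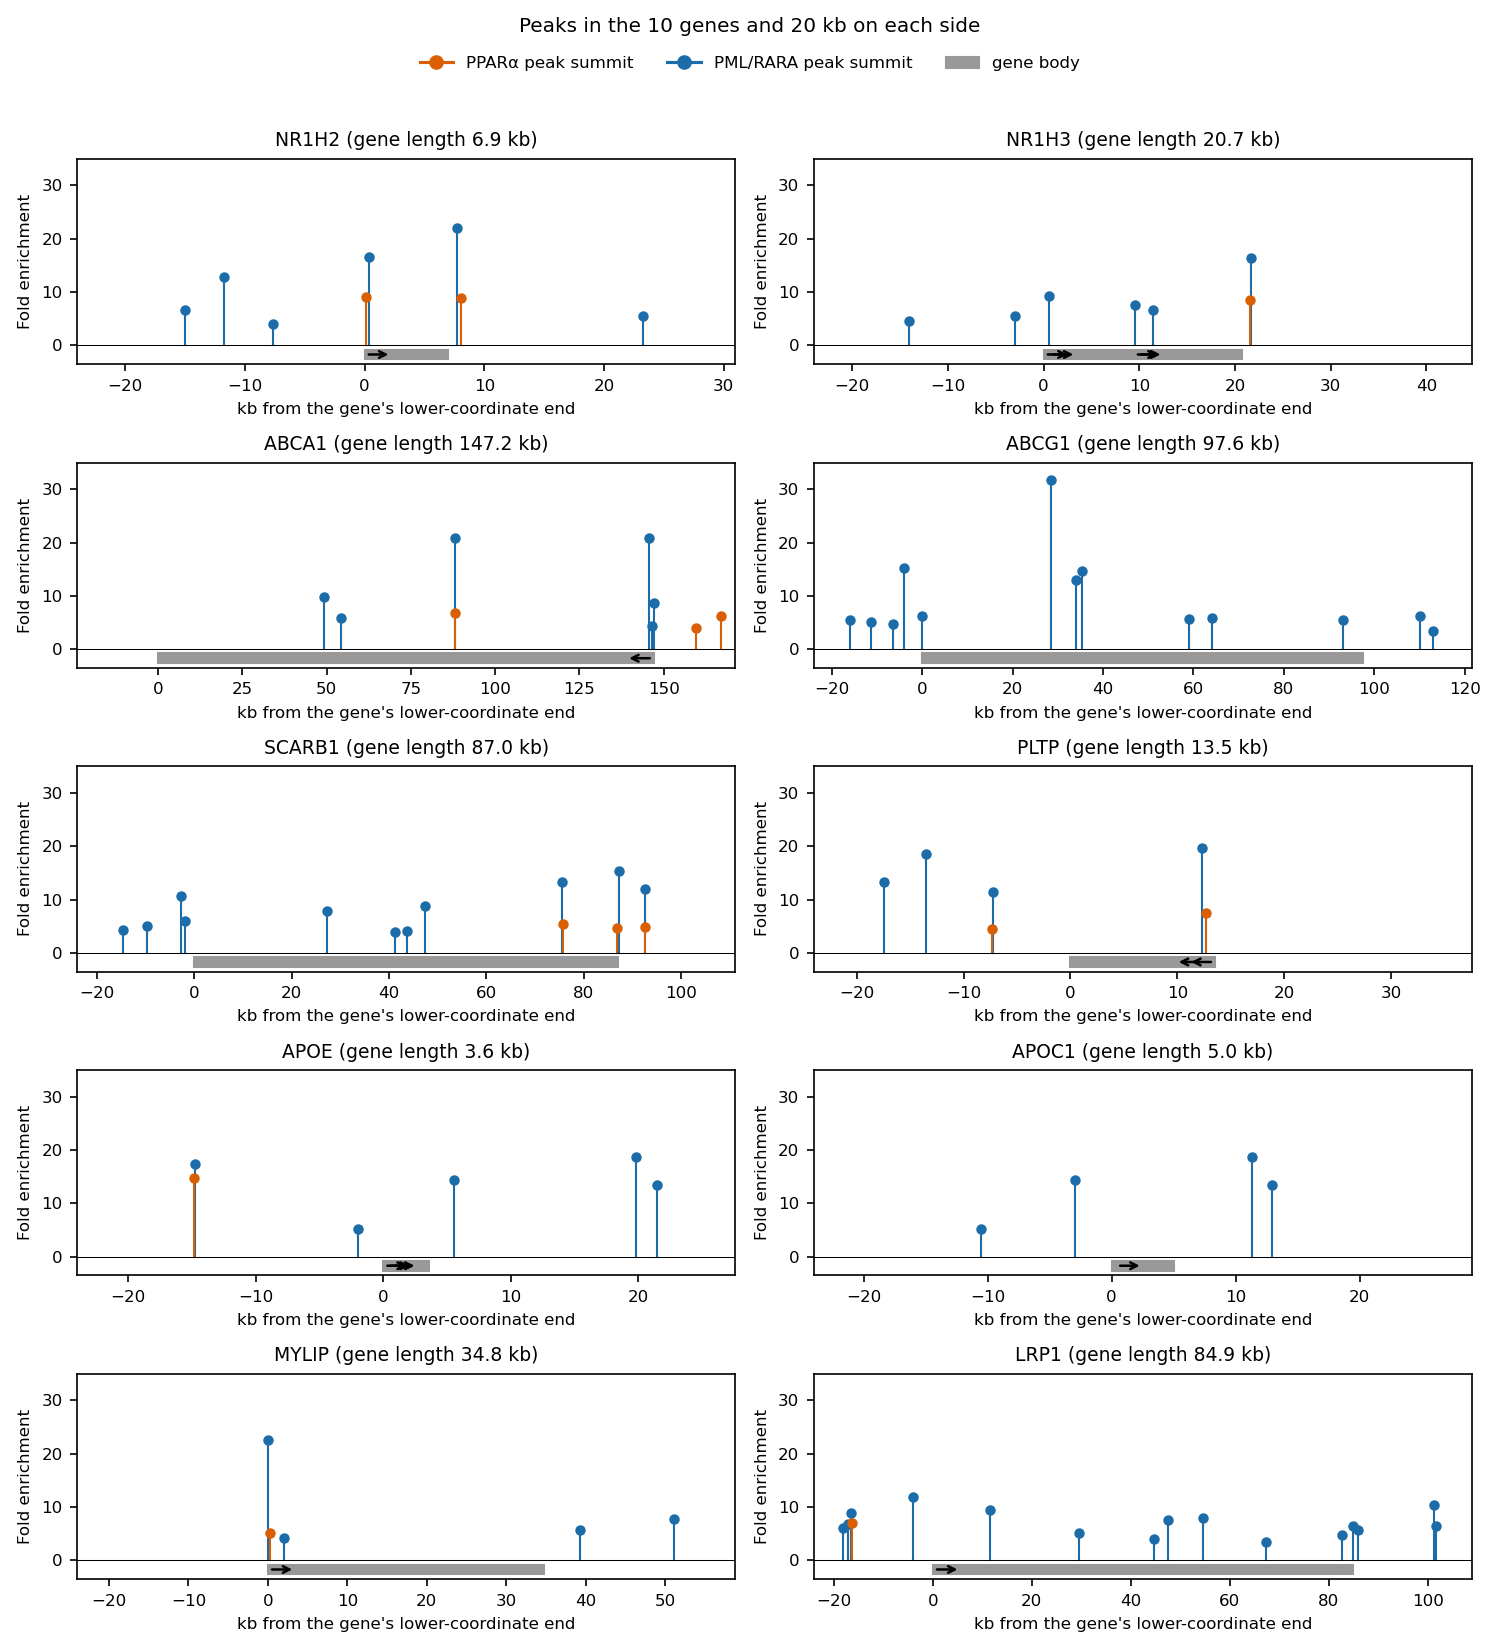
Summits of PPARα (orange) and PML/RARA (blue) peaks in each gene and 20 kb on each side, with distance from the gene's lower-coordinate end in kb on the horizontal axis and the authors' fold enrichment on the vertical axis. Grey bars are gene bodies, black arrows are the annotated starts and the direction of transcription; folds can be read against each other within an antibody but not between antibodies, and no PPARα summit appears in the ABCG1 and APOC1 panels.

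The receptor genes differed in where PPARα was found. NR1H2 (gene ID 7376, chromosome 19 from 50376457 to 50383388, plus strand) encodes LXRβ, the broadly expressed receptor. Its start carried a PPARα peak from 50376388 to 50377083 at a fold of 9.15 (−log10 q 14.5, the 82.8th percentile of the PPARα list). That peak lay wholly within a PML/RARA peak from 50376235 to 50377165 (fold 16.6, −log10 q 105, the 92.7th percentile of its list). The PPARα summit was 130 bases and the PML/RARA summit 365 bases downstream of the start, 235 bases apart. Its promoter, shown above, holds CCGGAAG, the core letters of an ETS-type site, 4 times, and no direct repeat of AGGTCA within 2 mismatches at the 4 spacings. CCGGAAG was found in 10.3% of 34961 annotated promoters, in 23.5% of those under a PPARα peak and in 20.9% of those under a PML/RARA peak.

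A second shared site in the NR1H2 window belonged by position to POLD1, the gene of the catalytic subunit of DNA polymerase delta, whose start follows the end of NR1H2. There the PPARα fold was 8.85 and the PML/RARA fold 22.02, which put the PML/RARA peak at the 98.5th percentile of its list. The peaks shared 286 bases and their summits were 318 bases apart. The other 4 PML/RARA peaks of this window had folds from 4.11 to 12.9 and no PPARα peak. Of them, 2 lay at starts of NAPSA, an aspartic protease gene upstream, and the peak of fold 5.48 lay at a further start of POLD1.

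NR1H3 (gene ID 10062, chromosome 11 from 47248300 to 47269033, plus strand) encodes LXRα, the receptor prominent in liver and macrophages. None of its 4 annotated starts carried a PPARα peak. PML/RARA peaks had their summits nearest to the second start (fold 9.29, −log10 q 15.7) and to the fourth start (fold 7.50, −log10 q 10.97). They stood in the middle of their list, at the 57.7th and the 47.9th percentile. By the rule of 1 kb on each side, these peaks also lay at the first and the third start. The peak at the second start had its summit 18 bases upstream of it and also lay at the start of ACP2, a lysosomal acid phosphatase gene transcribed the other way. The only PPARα peak of the window was at the far end of the gene, from 47268957 to 47270030 (fold 8.51, −log10 q 15.9, the 85.2nd percentile). It covered the start of MADD, a neighbouring gene of a Rab GTP-exchange factor, and lay wholly within a PML/RARA peak of fold 16.3. By position that shared site is 11.8 kb downstream of the nearest NR1H3 start.

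ABCA1 (gene ID 19, chromosome 9 from 104781006 to 104928155, minus strand), whose product loads cholesterol and phospholipid onto apolipoprotein A-I, carried PML/RARA peaks and no PPARα peak at its start. The peak over the start ran from 104928088 to 104928359 and had a fold of 8.71 (−log10 q 32.3). A weaker one (fold 4.27) had its summit 569 bases downstream of the start, and a strong one (fold 20.9, −log10 q 127, the 94.5th percentile) had its summit 1464 bases downstream. The strong one lay within 1 kb of an end of LOC105376196, a long noncoding RNA gene.

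The ABCA1 promoter was the only one of the 14 annotated promoters of these genes to hold a direct repeat of AGGTCA at any of the 4 spacings. The match was the repeat with 4 bases between, with 2 mismatches, read on the strand opposite to the gene as printed above, from 69 to 54 bases before the start (TGACCGATAGTAACCT on the gene's strand, positions 104928209 to 104928224). The summit of the PML/RARA peak over the start, at 104928211, fell inside these 16 bases. Of all 34961 promoters, 2.34% held such a match, as did 1.57% of the 13036 promoters under a PML/RARA peak, 2.80% of the 21925 without one and 1.61% of the 7327 under a PPARα peak. With at most 1 mismatch no promoter of the 10 genes held a repeat. Of the other letters, the repeats with 1, 2 and 5 bases between were in 2.96%, 2.16% and 2.47% of all promoters, and TGACGTCA in 1.85%; none of these was in the 14. A single AGGTCA was in 1 of the 14 (NR1H3, first start), against 13.8% of all promoters. GGGCGG was in 10 of the 14, against 45.03%, and CACGTG in 2 of the 14 (ABCA1 and PLTP), against 7.27%. The 14 promoters come from 8 genes, and some neighbouring ones of APOE and of NR1H3 overlap, so they are not 14 separate units. SCARB1 and ABCG1 were not matched in the promoter table.

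PPARα was found elsewhere in the ABCA1 window at 3 sites. The first, 59.2 kb inside the gene from the start (104868858 to 104869221, fold 6.73), lay wholly within a PML/RARA peak of fold 20.9 at the 91.8th percentile. The other two, 12.4 kb (fold 4.03) and 19.9 kb (fold 6.29) upstream of the start, had no PML/RARA peak. They were the only 2 of the 14 PPARα peaks to stand alone. The weaker of them had a −log10 q of 2.36, at the 7.68th percentile of the PPARα list.

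ABCG1 (gene ID 9619, chromosome 21 from 42199689 to 42297244), whose product passes cholesterol to high-density lipoprotein, had 13 PML/RARA peaks in its window and no PPARα peak. The strongest lay in the gene body, from 42227963 to 42228443, 28.5 kb from the lower-coordinate end. Its fold of 31.8 was the highest of the 70 PML/RARA peaks of these genes, and its −log10 q of 145 was at the 95.6th percentile of the list. A pair of peaks further in, at 34.1 and 35.2 kb, had folds of 13.0 and 14.6. One at the lower-coordinate end had a fold of 6.23, and another 4.08 kb outside that end had a fold of 15.2. The remaining 8 peaks had folds from 3.45 to 6.24, and the lowest lay at an end of TFF3, a trefoil peptide gene beyond ABCG1.

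**Figure D2:**
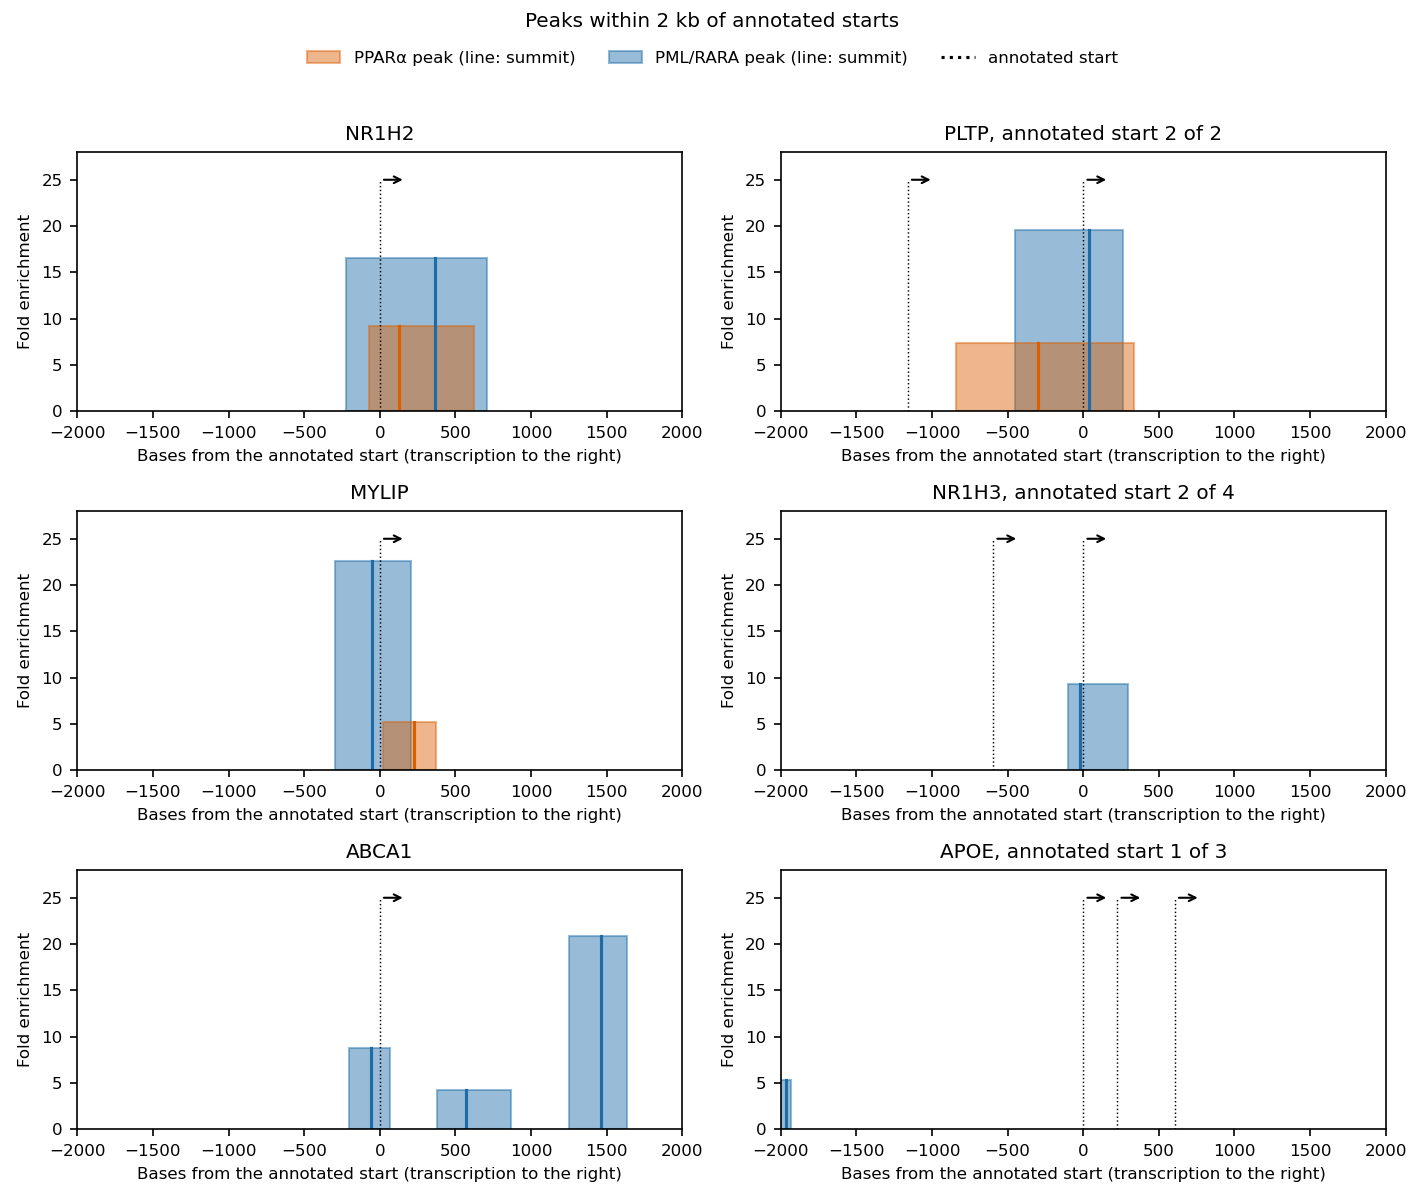
Peaks of PPARα (orange) and PML/RARA (blue) within 2000 bases of annotated starts, with bases from the start on the horizontal axis (transcription runs to the right) and the authors' fold enrichment on the vertical axis. Boxes span the peaks, solid lines mark summits and dotted lines with arrows mark annotated starts; NR1H2, PLTP and MYLIP show both antibodies, NR1H3 and ABCA1 only PML/RARA, and APOE no peak at its starts.

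The genes of lipoprotein exchange divided into SCARB1 and PLTP with PPARα at an end or start, and APOE and APOC1 without. SCARB1 (gene ID 949, chromosome 12 from 124776856 to 124863864) encodes the scavenger receptor that takes up cholesteryl ester from high-density lipoprotein. Its 3 PPARα peaks were weak, with folds of 5.46, 4.73 and 4.95 at the 33.2nd, the 23.9th and the 27.7th percentile of the PPARα list. All 3 overlapped PML/RARA peaks, whose folds were 13.2, 15.4 and 11.9. They lay 11.2 kb inside the higher-coordinate end, at that end (124863715 to 124864455), and 5.46 kb outside it. At the outermost site the summits were 19 bases apart, the smallest distance among these genes. The other 8 PML/RARA peaks of SCARB1 had folds from 3.88 to 10.7 and no PPARα peak.

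PLTP (gene ID 5360, chromosome 20 from 45898620 to 45912155, minus strand) encodes the phospholipid transfer protein of plasma. Its PPARα peak ran from 45910660 to 45911837, 1178 bases, the widest of the 14, at a fold of 7.39 (−log10 q 10.8). With the PML/RARA peak inside it (45910728 to 45911444, fold 19.6, −log10 q 160, the 96.2nd percentile), it covered the whole promoter of the downstream start printed above. Neither peak reached the promoter of the upstream start. The PML/RARA summit was 35 bases downstream of the start it covered and the PPARα summit 296 bases upstream of it, so the summits were 331 bases apart. Among the 12 overlapping PPARα peaks, this was the largest distance from a PPARα summit to the nearest PML/RARA summit. A weaker PPARα peak in the window (fold 4.48, −log10 q 2.80) lay at the starts of CTSA, the cathepsin A gene, and NEURL2, under a PML/RARA peak of fold 11.4. Of the other 2 PML/RARA peaks, with folds of 13.2 and 18.6, the first lay at the start of ZSWIM1.

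APOE (gene ID 348, chromosome 19 from 44905796 to 44909393, plus strand) and APOC1 (gene ID 341, chromosome 19 from 44914325 to 44919346, plus strand) encode apolipoproteins of lipoprotein particles and lie side by side. Neither carried a peak of either antibody at a start or inside the gene. The 4 PML/RARA peaks they share lay 1.97 kb before the first APOE start (fold 5.26), between the genes (44911186 to 44911498, fold 14.5, −log10 q 36.3), and beyond APOC1 (fold 18.7, 44925490 to 44925787, and fold 13.4, 44927138 to 44927387). The last was within 1 kb of an end of the pseudogene APOC1P1. None of the 4 had a PPARα peak. The single PPARα peak of the APOE window was the highest ranked of the 14, at the 98.9th percentile (fold 14.8, −log10 q 52.0). It lay 14.8 kb before the first APOE start, from 44890503 to 44891229, at the start of TOMM40, the gene of the mitochondrial outer membrane import channel. A PML/RARA peak of fold 17.3 and −log10 q 353, the 99.3rd percentile, covered it whole with summits 79 bases apart.

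The uptake genes MYLIP and LRP1 showed opposite arrangements. MYLIP (gene ID 29116, chromosome 6 from 16129086 to 16163887, plus strand) encodes a ubiquitin ligase that limits lipoprotein uptake. Its start carried a PML/RARA peak of fold 22.6 and −log10 q 127 (16128792 to 16129290), the highest fold of the 9 PML/RARA peaks at the genes' own starts. The PPARα peak there was weak (fold 5.22, −log10 q 3.99, the 27.3rd percentile). It ran from 16129109 to 16129459 and so reached only the last 27 bases of the printed promoter, while the PML/RARA peak covered all 300. Their summits lay 230 bases downstream and 51 bases upstream of the start. The other 3 PML/RARA peaks of MYLIP had folds from 4.26 to 7.72.

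LRP1 (gene ID 4035, chromosome 12 from 57128483 to 57213361, plus strand), a large endocytic receptor for apolipoprotein E-bearing particles, had 15 PML/RARA peaks in its window, the most of the 10 genes, and none at its start. The nearest before the start was 4.02 kb away (fold 11.8). Inside the gene were 7 peaks, with folds from 3.46 to 9.48. The only PPARα peak (57111189 to 57112346, fold 6.98) lay 16.4 kb before the start, at the start of STAT6, the transcription factor gene of interleukin-4 signalling, and overlapped 2 PML/RARA peaks of folds 6.86 and 8.87. A pair of PML/RARA peaks at the other edge (10.46 and 6.39) lay at the start of SHMT2, a mitochondrial serine hydroxymethyltransferase gene.

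**Figure D3:**
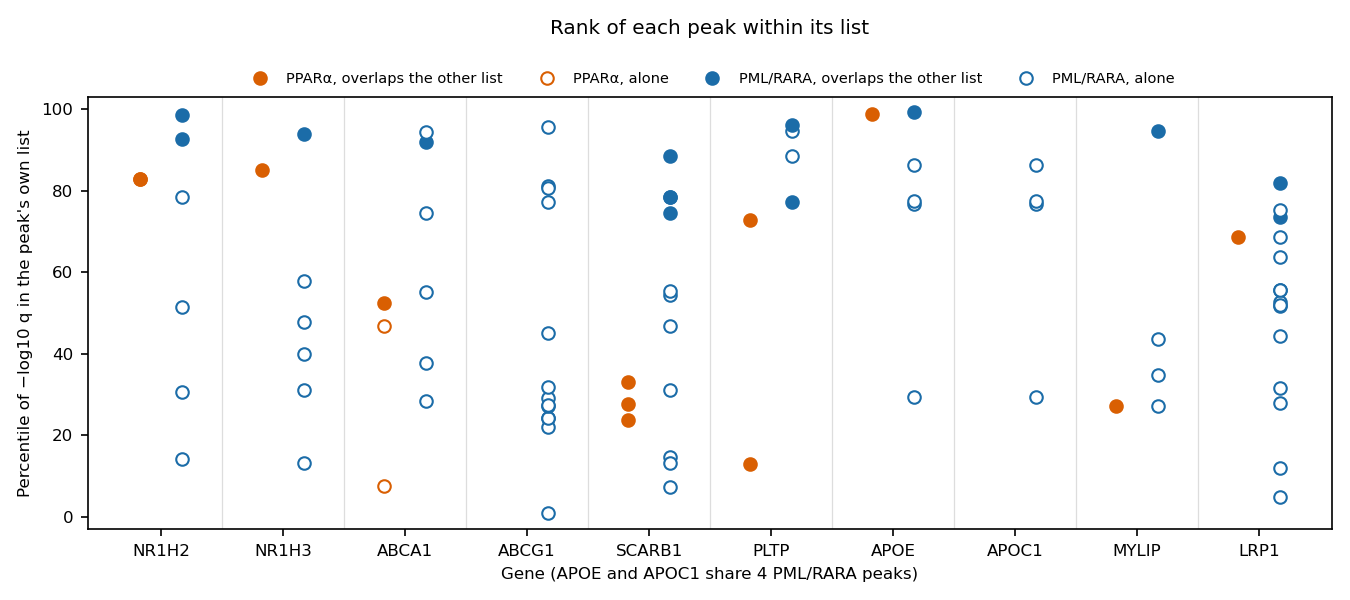
Percentile of each peak's −log10 q within its own list (vertical axis, 100 is the highest) for each gene (horizontal axis), with PPARα at left in orange and PML/RARA at right in blue. Filled circles overlap a peak of the other list and open circles do not; the 2 open PPARα circles are at ABCA1, and the TOMM40 peak in the APOE window is the highest PPARα circle at 98.9.

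The PPARα peaks were placed by whether they lay at a start of the gene itself, at that of a neighbour, or elsewhere. Of the 14 PPARα peaks, 4 lay at a start of the gene itself, 5 at the start of another protein-coding gene (POLD1, MADD, CTSA with NEURL2, TOMM40 and STAT6), 2 elsewhere in the gene body and 3 in the flanks. The median fold was 6.31 at the genes' own starts and 8.51 at those of the neighbours. Together, 64.3% lay at a coding start, close to the 66.0% of the 8610 PPARα peaks in the windows of all protein-coding genes. Of the 70 PML/RARA peaks, 9 lay at an own start, 13 at a neighbour's, 24 elsewhere in the gene body and 24 in the flanks. That put 31.4% at a coding start, against 33.5% of the 39180 PML/RARA peaks in all such windows.

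**Figure D4:**
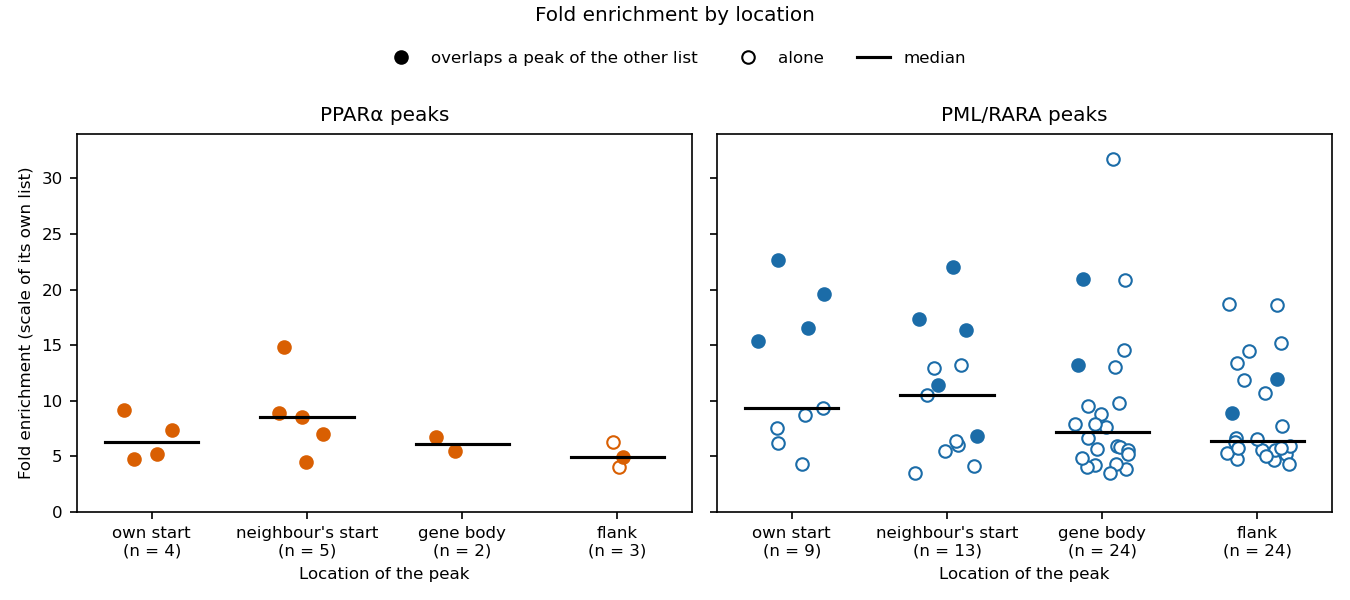
Fold enrichment (vertical axis, each list on its own scale) of the 14 PPARα peaks at left and the 70 PML/RARA peaks at right, by location on the horizontal axis. Filled circles overlap a peak of the other list, open circles do not, and black bars are medians; all 4 PPARα peaks at the genes' own starts are filled.

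The antibodies shared most of the PPARα sites around these genes, as they did in the windows of all protein-coding genes (92.6% of 8610 PPARα peaks). Of the 14 PPARα peaks, 12 overlapped a PML/RARA peak (85.7%, exact Clopper-Pearson 95% interval 57.2 to 98.2, which covers counting error over peaks only), against 90.1% of the whole PPARα list. From the summits of these 12, the nearest PML/RARA summit was 19 to 331 bases away, with a median of 172.5 bases, and 7 were within 200 bases. The PPARα peak at STAT6 overlapped another PML/RARA peak as well, whose summit was 693 bases away. Summit distances over the whole list are not given here. Counted from PML/RARA, 13 of 70 peaks overlapped PPARα (18.6%, 10.3 to 29.7), against 21.4% of the whole list. The 13 had a median fold of 16.3 (6.86 to 22.6) and a median width of 659 bases. The 57 without PPARα had a median fold of 6.24 and a median width of 202 bases, though they reached 31.8 at ABCG1. In the whole PML/RARA list the medians were 14.6 with PPARα and 6.43 without.

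Related genes of the pathway were read with the same rule. Together 18 of 53 had a PPARα peak at a start (33.96%) and 33 of 53 a PML/RARA peak (62.3%), close to the shares of all genes. Among LXR partners and cofactors the counts were 6 of 12 for PPARα and 10 of 12 for PML/RARA, both above the 32.7% and 57.7% of all genes. They included RXRB, a retinoid X receptor gene (PPARα fold 12.6, PML/RARA fold 12.5), MED1, a Mediator subunit gene (10.2 and 23.3), and EP300, an acetyltransferase gene (8.15 and 22.1). RXRA had a PML/RARA peak alone at a start (7.77), while its window held 3 PPARα peaks.

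Other LXR target genes had PPARα at 4 of 16 starts and PML/RARA at 8 of 16, both below the shares of all genes (32.7% and 57.7%). LPCAT3, a phospholipid remodelling enzyme gene, had the highest PPARα fold of the 4 lists (15.2, with PML/RARA at 22.8). SCD, the stearoyl-CoA desaturase gene (4.78 and 18.4), and FASN, the fatty acid synthase gene (4.26 and 9.55), had weak PPARα peaks. SREBF1, the gene of the lipogenic regulator SREBP-1, had PML/RARA alone at a start (10.3), while its window held 3 PPARα peaks.

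Genes of cholesterol uptake, storage and transport had PPARα at 6 of 16 starts and PML/RARA at 11 of 16 (37.5% and 68.75%), where all genes had 32.7% and 57.7%. Examples were NPC2, a lysosomal cholesterol carrier gene (10.4 and 31.4), and SOAT1, a cholesterol esterification enzyme gene (9.18 and 15.5). In oxysterol synthesis and turnover the counts were 2 of 9 and 4 of 9, both below those shares. CYP46A1, the cholesterol 24-hydroxylase gene (7.88 and 24.3), was among those carrying both. SULT2B1 was among those with PML/RARA alone at a start (3.90), while its window held 4 PPARα peaks.

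**Figure D5:**
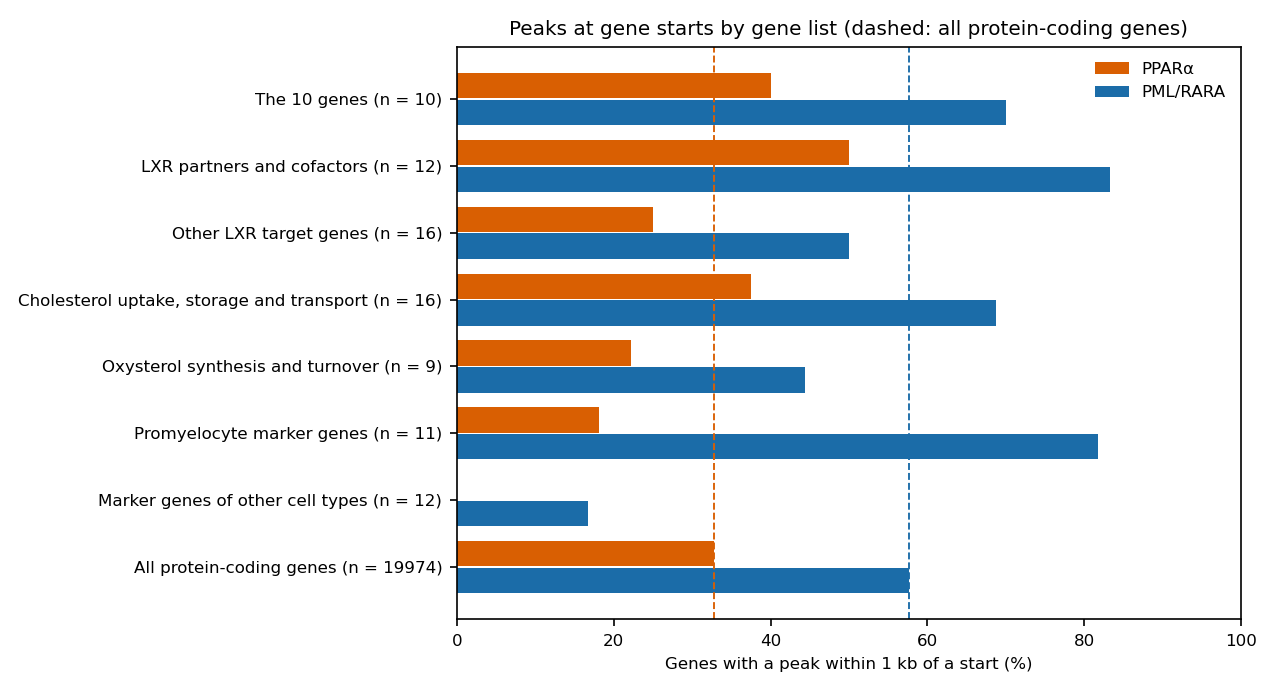
Percent of genes with a peak within 1 kb of a start (horizontal axis) for the 10 genes, the other gene lists and all protein-coding genes (vertical axis, number of genes in brackets), PPARα in orange above PML/RARA in blue. Dashed lines are the shares of all protein-coding genes, 32.7% for PPARα and 57.7% for PML/RARA; the bars of the 10 genes stand for 4 and 7 genes.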

How the data were processed

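The deposited peak lists of the PPARα and PML/RARA CUT&Tag libraries were used, 1 per antibody. Per the submitters' processing notes, coordinates are on hg38 and Bowtie2 2.2.9, SAMtools, MACS 1.4.2 and bedtools were used, with no roles or settings given. Which program and version wrote the deposited lists is not settled here. The sources used here give no role for the IgG libraries in peak calling. The deposited lists give each peak's start, end and summit offset, a fold enrichment (a linear ratio made by the authors), a −log10 q, and a score, which is the whole part of 10 times the −log10 q per the file values. Fold and q are the authors' and were used only within a list.

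Peaks on chromosomes 1 to 22 and X were kept (9819 PPARα, 45988 PML/RARA). Gene positions are those of RefSeq on GRCh38.p14. Starts came from RefSeq's promoter table for 15813 of 19974 protein-coding genes and 8 of the 10 genes. For the remaining 4161 genes both annotated ends were used. Percentiles are shares of peaks, or of genes, at or below a value. Peaks inside a gene were not split by exon or intron. Interval counting and motif search, done in Python 3.11.15 with pandas 2.3.3, numpy 2.4.6 and scipy 1.17.1, were tested on simulated data. The 10 genes and all gene lists were chosen with earlier results of these data known. Named besides the 10 genes were up to 3 genes per list with the highest −log10 q at a start and neighbours whose start or end had a peak, apart from some genes that are not reported here. RXRA, SREBF1 and the noncoding or pseudogene neighbours LOC105376196 and APOC1P1 were added after their values were seen. Alternatives were stricter lists, a shortened PML/RARA list, other flanks, start windows and overlap rules, and fewer mismatches. Depth is unknown, and "no peak" means that none was called.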

Additional observations from a re-analysis of the deposited data

How the results depend on the processing

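No paired analysis was possible because each antibody has 1 peak list. With −log10 q of at least 5, the genes with PPARα at a start numbered 2 of 10, since the peaks at SCARB1 and MYLIP were below it, the median PPARα density fell to 0.935 per 100 kb, and 11 of the 53 related genes had a PPARα start peak. When PML/RARA was limited to its 9819 peaks of highest −log10 q, it marked 4 of 10 starts, its median density was 1.91 per 100 kb and 18 of the 53 related genes had a start peak. By the same rules, 24.1% of all protein-coding genes had a PPARα start peak and 30.4% a PML/RARA one. Both median densities over all protein-coding genes were 0. The share of PPARα peaks overlapping PML/RARA was 100% with gene bodies only and with flanks of 5 kb, because the lone peaks lie further out, 64.3% with the shortened list and 50% when summits had to lie within 200 bases. Whole-list shares under these rules are not given here. The 90.1% of the whole PPARα list was counted by any overlap with the full PML/RARA list, so these shares cannot be set against it. With 1 mismatch allowed, 0 promoters of the 10 genes held a direct repeat, against 1 with 2 mismatches. The other alternatives left each count within 1.5 times its value. With either annotated end in place of the start, an alternative chosen after seeing the data, the counts were 5 for PPARα and 8 for PML/RARA, which added NR1H3 through the peak at MADD and LRP1 through a peak at its far end. Intervals cover counting error over peaks, and no value measures variation between libraries.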

Other observations

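At ABCG1, 13 PML/RARA peaks stood without a PPARα peak in the window. As many PML/RARA peaks or more were found in the windows of 560 protein-coding genes, of which 102 (18.2%) had no PPARα peak. Among the 9281 genes without a PPARα peak in the window, 1.099% had as many. These counts take no account of window length: the ABCG1 window is 137.6 kb, against a median of 64.2 kb over all protein-coding genes, and the gene stood at the 98.0th percentile by count of PML/RARA peaks but at the 81.2nd by peaks per 100 kb. The gene was chosen for this count after its values were seen.

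The NR1H2 promoter held CCGGAAG 4 times, at positions starting 100, 42 and 9 bases before and 20 bases after the start. As many matches or more were found in 11 of 34961 annotated promoters. The letters were searched in all promoters, and the count of 4 was singled out after it was seen.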
